A study of Mus musculus with 8 samples.

Results

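The 9 genes described here encode basic helix-loop-helix (bHLH) transcription factors of neurogenesis: Atoh7, Neurog2, Neurod1, Neurod2, Neurod4, Olig2, Hes6, Nhlh1 and Nhlh2. They were chosen by name, and all 9 are among the 16096 genes of the deposited table. The tissue was peripheral retina, dissected at embryonic day 16.5 from mice of the C57BL/6 strain, and its RNA was sequenced. The 4 labelled-cKO libraries are Pax6alpha-Cre:Ezh2fl/null, with 1 loxP-flanked and 1 null allele of Ezh2, the histone H3 lysine methyltransferase gene of Polycomb repressive complex PRC2. The 4 control libraries are Pax6alpha-Cre:Ezh2fl/+, with 1 flanked and 1 wild-type allele. All 8 thus carry the Pax6alpha-Cre driver and a flanked allele. The labels do not say in which share of the cells Cre had acted, and cells that it spared have 1 functional allele in the labelled-cKO embryos and 2 in the controls. Replicates are separate samples in the labels, with no embryo or litter named, and a p-value therefore reflects only how much these samples vary, which may be technical.

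Proneural bHLH factors bind DNA at E-boxes, the letters CANNTG, as dimers with the widely expressed E proteins. They start the neuronal programme in dividing progenitors and switch on later bHLH genes of the Neurod and Nhlh families, while Id proteins take up E proteins and Hes and Hey repressors hold progenitors back. In the retina Atoh7 is required for the competence to form ganglion cells, Neurog2 marks neurogenic progenitors, Neurod1 and Neurod4 act in photoreceptor, amacrine and bipolar precursors, and Olig2 marks progenitors close to their last division.

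Depth was 13994825 to 18391647 counts per library. Levels are given as CPM, counts divided by the normalized library size and scaled to 1 common depth, and levels of different genes are compared only in the authors' FPKM, which also scales for gene length. The whole-gene count of Ezh2 was 220 to 276 CPM in the labelled-cKO libraries and 197 to 235 CPM in the controls, so it was not lower where it should be deleted. Its log2 difference was 0.21 (edgeR adjusted p = 0.0701). Counts over the whole gene do not see a deletion of single exons and so check nothing here, and the noncoding gene Gm26625 lies opposite Ezh2. Xist was at 1874 and 1714 counts in labelled-cKO replicates 2 and 3 and at 4 or fewer elsewhere, so those 2 libraries were treated as female and the other 6 as male. Labelled-cKO replicate 2 and control replicate 1 held 122 and 167 counts of lens genes, against 18 to 38 in the others. The eye field genes Pax6, Rax and Six6 were detected in every library, Pax6 at 675 to 748 CPM, Rax at 164 to 207 CPM and Six6 at 223 to 245 CPM.

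In the labelled-cKO libraries 2 of the 9 genes were lower, 2 higher, and the other 5 passed no threshold, at an adjusted p under 0.05 (edgeR quasi-likelihood test, Benjamini-Hochberg over 15014 genes). Over all genes tested, 3.46% were called lower and 8.35% higher. The lower genes were the proneural factors Atoh7 and Neurog2, and the higher genes were Neurod4 and Neurod2, factors of later differentiation. Neurod1, Hes6, Nhlh1 and Nhlh2, also tied to differentiation, were not called. Of 17 alternative fits, the call of Neurod4 was lost in 8, that of Neurod2 in 5 and that of Neurog2 in 1. The groups did not overlap in CPM for 3 of the 9 genes, 2 of them lower and 1 higher, against 16.3% of all genes tested (6.23% lower and 10.1% higher). The median log2 difference was 0.08 over the 9 genes and -0.01 over all genes tested. Summed over the 9 genes, the level was 1140 to 1242 CPM in the labelled-cKO and 1153 to 1183 CPM in the control libraries, and these ranges overlap. In whole tissue, fewer cells of a type and less RNA per cell cannot be told apart.

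**Figure D1:**
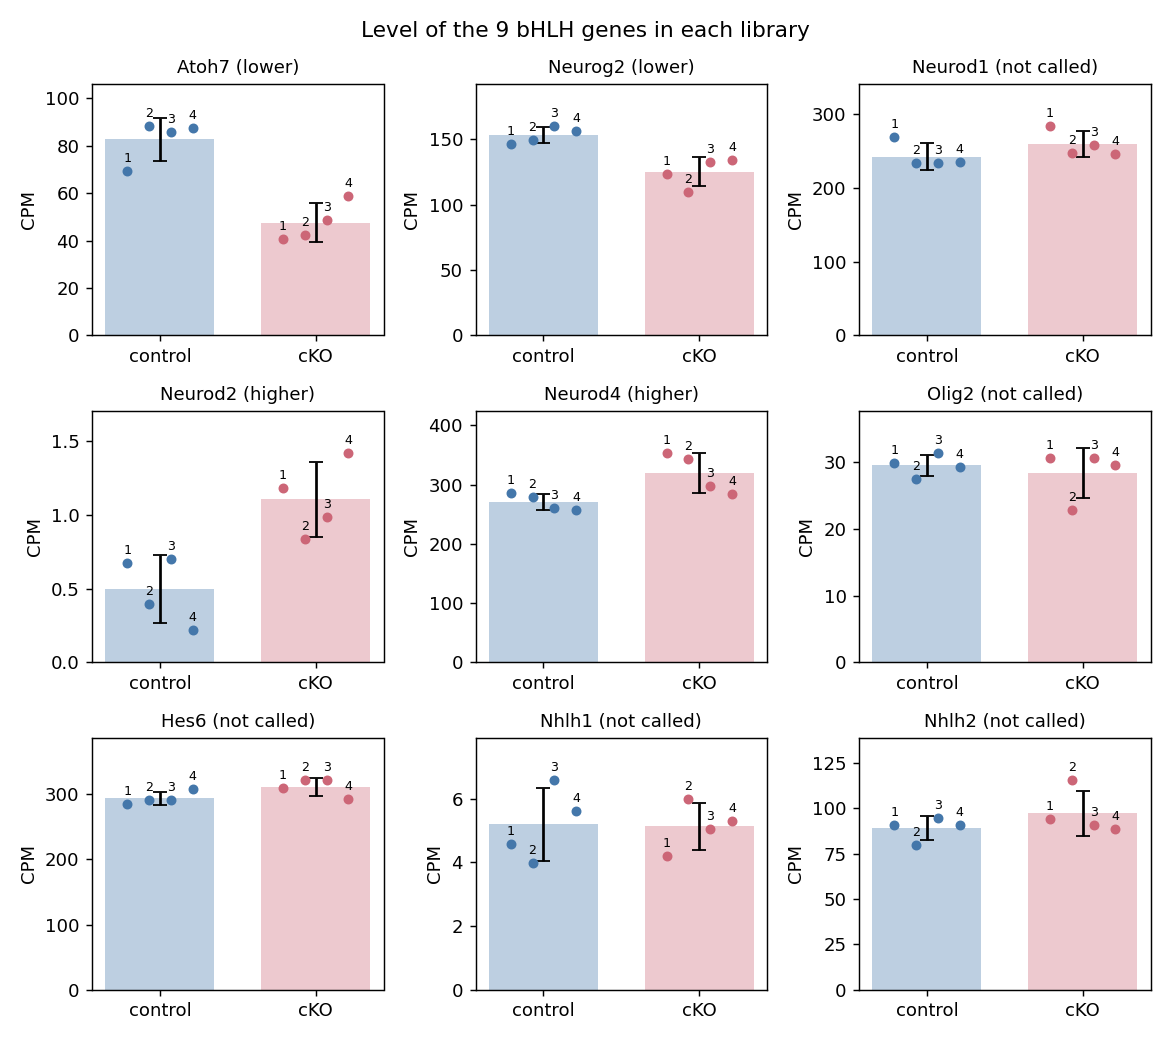
Level of each of the 9 genes in CPM (y axis, from 0) in the 4 control and 4 labelled-cKO libraries (x axis; points carry the replicate number, bars are means and error bars the SD). Atoh7 and Neurog2 lie lower and Neurod2 higher in every labelled-cKO library than in any control, whereas Neurod4 overlaps between the groups by a single library.

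Atoh7, the ganglion cell competence factor, was the gene of the set that fell furthest. Labelled-cKO replicates 1 to 4 had 40.5, 42.3, 48.5 and 59.0 CPM, and the controls, in the same order of replicates, had 69.2, 88.5, 86.0 and 87.4 CPM. Every labelled-cKO library was below every control library, and control replicate 1 was the lowest control by a wide margin. The means were 47.6 ± 8.34 and 82.8 ± 9.09 CPM (SD, n = 4 each), a ratio of 0.575. The log2 difference was -0.80 (SE 0.11, 95% limits -1.03 to -0.57, edgeR adjusted p = 0.000124), and it kept this call in all 17 alternatives, with values from -0.92 to -0.73. In the authors' deposited table the log2 ratio of Atoh7 is -0.76. The call rests on 754, 608, 740 and 955 counts against 925, 1352, 1226 and 1570.

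Atoh7 (ENSMUSG00000036816, mm10 chromosome 10, 63099651 to 63101279, plus strand, 1629 exon bases in GENCODE M21) overlaps no other annotated gene. The 250 bases before its RefSeq start (GRCm38.p6, position 63099785) hold 3 E-boxes and, 30 bases before the start, the letters TATAAA. They are shown because Atoh7 is itself a factor that binds E-boxes. E-boxes are in capitals here and in the sequences that follow. CAGATG lies 218 bases before the start, in the stretch before the GENCODE start at chr10:63099535-63099650. The 2 copies of CACCTG, 67 and 57 bases before the start, lie at chr10:63099711-63099740. They and the letters TATAAA come after the GENCODE start at 63099651, so inside the gene as GENCODE annotates it.
Atoh7 upstream: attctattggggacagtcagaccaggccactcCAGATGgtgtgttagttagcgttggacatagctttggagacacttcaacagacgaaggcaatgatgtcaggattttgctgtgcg
Atoh7 near the start: gcccgccCACCTGccacCACCTGttccctc

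Matches to CANNTG, which reads the same on both strands, are common: 66.2% of the 32851 RefSeq start windows of this length hold at least 1, with a median of 1 match. CACCTG or its reverse CAGGTG occurs in 17.2% of them, CAGATG or CATCTG in 14.4%, and TATAAA or TTTATA in 12.4%. These matches overlap the general CANNTG pattern except the last. All 9 genes matched the RefSeq table, with 11 windows in all, and 7 of the windows, from 6 of the genes, hold an E-box. The windows of Neurog2, Neurod4 and Olig2 hold none. A match describes letters only; no binding was measured.

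Neurog2, the proneural factor of neurogenic progenitors, was lower by a smaller amount. Its levels were 123, 110, 133 and 134 CPM in labelled-cKO replicates 1 to 4 and 147, 149, 160 and 157 CPM in the controls. The groups did not overlap, and the gap between the highest labelled-cKO and the lowest control library was that between 134 and 147 CPM. The means were 125 ± 11.1 and 153 ± 6.44 CPM (SD, n = 4), a ratio of 0.816. The log2 difference was -0.29 (SE 0.06, 95% limits -0.42 to -0.17, edgeR adjusted p = 0.00356), and the authors' deposited table gives the same ratio, -0.29. With embryo sex as a covariate the call of Neurog2 ended, at log2 -0.25 (edgeR adjusted p = 0.0501), whereas with the 6 male libraries alone it held at -0.25 (0.0148), in a range of 9.13e-05 to 0.0501 over 17 alternatives.

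Neurog2 (ENSMUSG00000027967, chromosome 3, 127633135 to 127635631, plus strand) has 2 exons and overlaps no annotated gene. The stretch before its start, chr3:127632886-127633134, is shown as the counterpart of the Atoh7 window: both genes fell, and no CANNTG match occurs here.
Neurog2 upstream: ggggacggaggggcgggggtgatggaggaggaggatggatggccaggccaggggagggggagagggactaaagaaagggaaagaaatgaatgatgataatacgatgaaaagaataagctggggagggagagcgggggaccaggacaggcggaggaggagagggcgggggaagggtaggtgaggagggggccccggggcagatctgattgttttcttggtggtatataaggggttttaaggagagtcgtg

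Of 12 progenitor genes, 4 fell, 0 rose and 8 passed no threshold, with a median log2 difference of -0.13. The 12 genes summed to 7213 to 7983 CPM in the labelled-cKO and 8644 to 9190 CPM in the control libraries. Much of the difference in this sum was that of the cyclin gene Ccnd1, at 3215 ± 183 against 4100 ± 131 CPM (SD, n = 4). The lower members included Ccnd1 (log2 -0.35), the nuclear receptor gene Nr2e1 (-0.41) and the growth factor gene Fgf15 (-0.31), while the proliferation marker Mki67 was at -0.04 (edgeR adjusted p = 0.807) and Sox2 at 0.03 (0.763). The part of a changed number of progenitors in the levels of Atoh7 and Neurog2 was not tested.

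Of the Neurod genes, which act as neurons differentiate, 2 were higher and Neurod1 was not called. For Neurod4, labelled-cKO replicates 1 to 4 had 354, 343, 297 and 284 CPM, whereas the controls had 287, 279, 261 and 257 CPM. Replicates 1 and 2 of the labelled-cKO group were well above all controls, and replicate 4 lay just below control replicate 1. The means were 319 ± 34.2 and 271 ± 14.2 CPM (SD, n = 4), with a log2 difference of 0.24 (SE 0.07, 95% limits 0.09 to 0.38, edgeR adjusted p = 0.0337). The call of Neurod4 is fragile: it was lost in 8 of 17 alternatives, with values of 0.19 to 0.29 and adjusted p-values of 0.00748 to 0.137. It ended without labelled-cKO replicate 1 (log2 0.19, edgeR adjusted p = 0.104) or 2 (0.20, 0.0902), and without control replicate 2 (0.25, 0.0585), 3 (0.22, 0.0984) or 4 (0.21, 0.107). It also ended with a sex term, in male libraries alone, and without the 2 libraries with lens counts. The log2 ratio of Neurod4 in the authors' deposited table is 0.23.

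Neurod4 (ENSMUSG00000048015, chromosome 10, 130268152 to 130280240, minus strand) has 2 RefSeq windows, both without CANNTG. The first, on the minus strand at chr10:130280255-130280504, is printed for comparison with the other called genes.
Neurod4 upstream: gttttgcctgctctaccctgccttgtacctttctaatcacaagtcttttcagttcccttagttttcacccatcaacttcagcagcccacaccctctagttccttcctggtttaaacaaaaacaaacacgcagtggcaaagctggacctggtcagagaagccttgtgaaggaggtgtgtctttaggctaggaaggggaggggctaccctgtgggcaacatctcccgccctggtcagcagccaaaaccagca

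Neurod2, known for its role in forebrain neurons and in subsets of amacrine and ganglion cells, was the rarest of the 9. It had 22, 12, 15 and 23 counts in labelled-cKO replicates 1 to 4 and 9, 6, 10 and 4 in the controls. In CPM these are 1.18, 0.835, 0.983 and 1.42 against 0.674, 0.393, 0.701 and 0.223, so the groups did not overlap although single libraries differ by a few reads. The means were 1.11 ± 0.254 and 0.498 ± 0.230 CPM (SD, n = 4). The log2 difference was 1.20 (SE 0.33, 95% limits 0.49 to 1.91, edgeR adjusted p = 0.0280). The gene passed the low-count filter through its labelled-cKO libraries: all 4 of them and 1 control reached the filter's 0.668 CPM. Without the filter it was still called, at log2 1.20 (edgeR adjusted p = 0.0350). The call of Neurod2 was lost in 5 of 17 alternatives, whose adjusted p ran from 0.0201 to 0.10: with DESeq2 (log2 1.19, adjusted p = 0.0675) and without labelled-cKO replicate 1 (1.17, 0.0651) or 4 (1.07, 0.0735) or control replicate 2 (1.12, 0.0834) or 4 (0.92, 0.10). The log2 ratio of Neurod2 in the authors' deposited table is 0.75, smaller than the 1.20 and 1.19 obtained here from the deposited counts. The reason was not tested.

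Neurod2 (ENSMUSG00000038255, chromosome 11, 98325415 to 98329648, minus strand) has 3 E-boxes before its RefSeq start, CAGATG at 118 bases, CATGTG at 51 and CATATG at 17. CATATG is found in 3.46% of all windows. The stretch before the start, on the minus strand at chr11:98329649-98329895, shows all 3.
Neurod2 upstream: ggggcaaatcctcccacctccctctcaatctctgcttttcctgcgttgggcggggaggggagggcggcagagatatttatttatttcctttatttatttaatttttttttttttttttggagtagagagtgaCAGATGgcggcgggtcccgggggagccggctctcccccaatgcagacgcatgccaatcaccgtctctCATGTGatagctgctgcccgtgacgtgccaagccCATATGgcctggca

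Genes of forebrain neurons, where Neurod2 is best known, moved in both directions. Of 7 such genes, Emx1 was absent from the table, the related bHLH gene Neurod6 was too low to test (0.381 and 0.163 CPM), and of the 5 tested 3 rose, 1 fell and 1 passed no threshold. The list summed to 42.2 to 46.7 CPM in the labelled-cKO and 29.5 to 35.5 CPM in the control libraries. The T-box factor gene Tbr1, also known in a subset of ganglion cells, was at 5.21, 5.29, 4.33 and 4.69 CPM against 0.674, 0.393, 0.701 and 0.501 CPM (log2 3.11, edgeR adjusted p = 1.15e-07). The vesicular glutamate transporter gene Slc17a7 rose by log2 1.63 and Bcl11b rose by 0.67. The call of the gene that fell was lost with a sex term, in male libraries alone and without the lens libraries. Whether these genes share a source with the Neurod2 reads was not tested.

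Neurod1, a photoreceptor and amacrine differentiation factor, was at 247 to 285 CPM in the labelled-cKO and 233 to 270 CPM in the control libraries. Its log2 difference of 0.10 (95% limits -0.03 to 0.22, edgeR adjusted p = 0.368) has limits that hold a small increase and do not reach the size of the change in Atoh7. Neurod1 lies on the minus strand of chromosome 2 (79452521 to 79456751) inside the span of Cerkl, on the same strand, and opposite the noncoding gene Gm26755. The sources used here do not say whether counting used strand, so Neurod1 counts may include reads of Gm26755, which stood at 32.0 and 29 CPM (log2 0.15, edgeR adjusted p = 0.190), or of Cerkl, at 5.52 and 5.12 CPM.

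**Figure D2:**
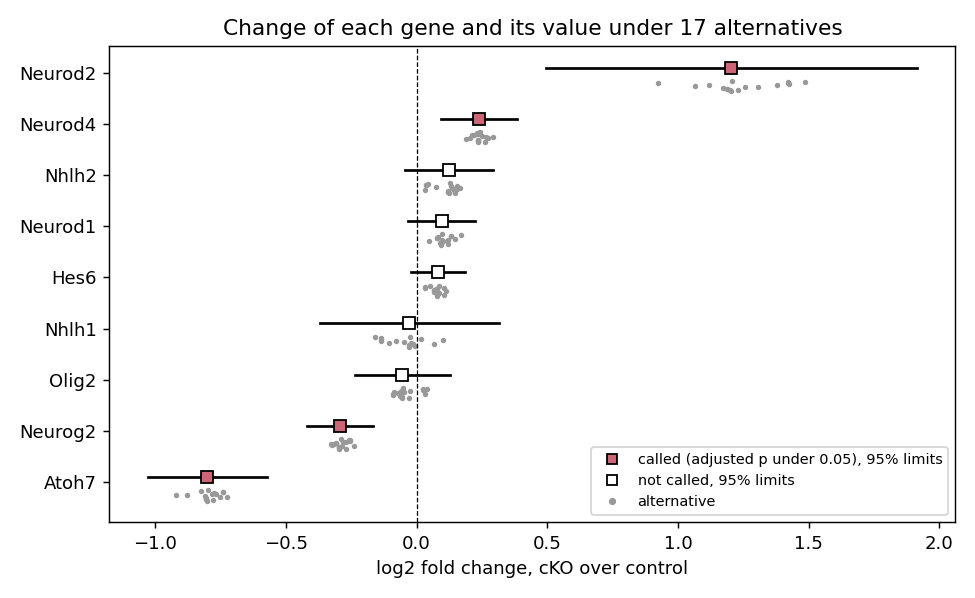
The log2 fold change of each gene, labelled cKO over control (x axis), with squares for the test on all 8 libraries, lines for its 95% limits, and small points for the same value under 17 alternatives. Atoh7 and Neurog2 stay below 0 and Neurod2 and Neurod4 above 0 in all of them, while the points of Olig2 and Nhlh1 fall on both sides.

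Hes6, which opposes Hes1 and promotes neuronal differentiation, and the Nhlh genes of newborn neurons were not called. Hes6 was at 309, 322, 322 and 292 CPM in the 4 labelled-cKO libraries, in order of replicate, and the controls had 285, 292, 291 and 308 CPM. The groups overlap, since control replicate 4 exceeds labelled-cKO replicate 4, and the log2 difference was 0.08 (95% limits -0.02 to 0.18, edgeR adjusted p = 0.332). Nhlh2 ranged from 88.4 to 116 CPM against 79.9 to 94.8 CPM, with its highest value in labelled-cKO replicate 2 (log2 0.12, limits -0.04 to 0.29, edgeR adjusted p = 0.379). Nhlh1, the rarer of the pair, ranged from 4.19 to 5.98 CPM against 3.99 to 6.59 CPM (log2 -0.03, limits -0.37 to 0.32, edgeR adjusted p = 0.947). With 61 to 101 counts per library, its limits are the widest of the 5 genes not called.

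Olig2, a marker of neurogenic progenitors in the retina and of oligodendrocyte precursors in the brain, was at 30.6, 22.8, 30.6 and 29.5 CPM in labelled-cKO replicates 1 to 4 and 29.9, 27.5, 31.4 and 29.3 CPM in the controls. Only replicate 2 of the labelled-cKO group was below the control range. The log2 difference was -0.05 (95% limits -0.24 to 0.13, edgeR adjusted p = 0.773), and without that replicate it was 0.034. Olig1, its paralog 41094 bases further along chromosome 16, was at 1.14 ± 0.158 against 0.238 ± 0.256 CPM (SD, n = 4) and rose by log2 2.09 (edgeR adjusted p = 0.00467). Of the oligodendrocyte genes, Sox10 and Nkx2-2 were absent from the table, and Mbp was at 57.4 and 51.9 CPM in the labelled-cKO and control groups. The whole list summed to 69.5 to 81.8 against 58.2 to 70.5 CPM. Of the 5 such genes tested, 3 rose (Olig1, Pdgfra and Cspg4) and 0 fell, while 8.35% of all genes tested were higher and 3.46% lower. Olig1, with 1, 3, 1 and 11 control counts, passed the low-count filter through its labelled-cKO libraries. Pdgfra is also on the mesenchyme list.

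Per length, the 9 genes spanned a wide range of levels. In the controls Atoh7 led with 183 ± 25.7 FPKM, followed by Hes6 at 162 ± 11.9, Neurod1 at 88.2 ± 5.20, Neurod4 at 80.3 ± 4.54 and Neurog2 at 68.3 ± 4.13 FPKM (SD, n = 4). Nhlh2 followed at 26.3 ± 1.53, Olig2 at 12 ± 0.444, Nhlh1 at 2.09 ± 0.438 and Neurod2 at 0.155 ± 0.0663 FPKM. The place of Atoh7 depends on the gene length that the authors used, which the sources do not name. Control Atoh7 was at 82.8 CPM and 183 FPKM, and Hes6, with 1808 exon bases, at 294 CPM and 162 FPKM. The length used for Atoh7 was thus well under its 1629 GENCODE exon bases, and with those it would stand lower in the order. The ranges of Atoh7 and Hes6 overlapped, with Atoh7 above Hes6 in 3 of 4 control libraries, as did those of Neurod1 and Neurod4. The other neighbours in this order did not overlap. In the labelled-cKO libraries Hes6 led with 174 ± 5.87 FPKM, above Atoh7 in all 4, and Atoh7 at 107 ± 20.7, Neurod4 at 96.1 ± 8.98 and Neurod1 at 95.8 ± 7.26 FPKM overlapped with each other.

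**Figure D3:**
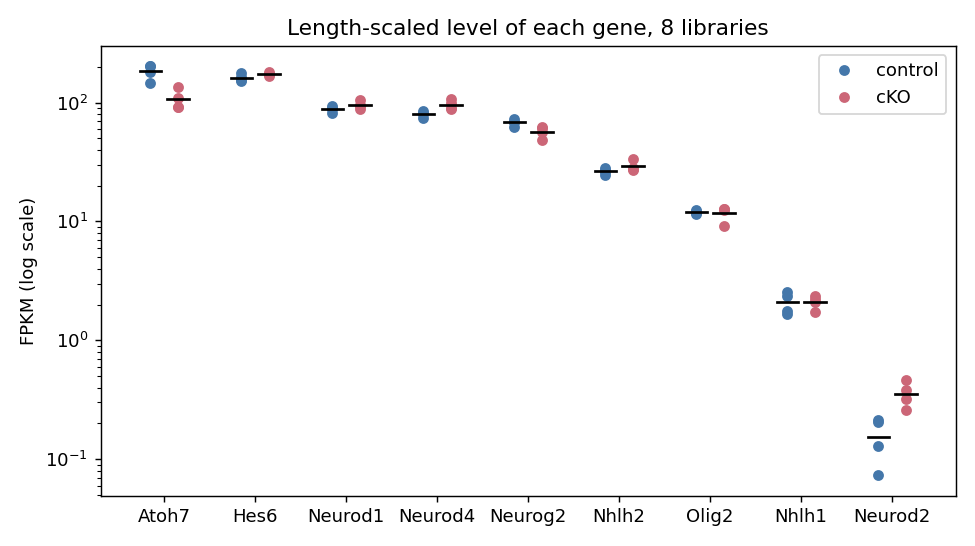
Authors' FPKM (y axis, log scale) of the 9 genes in the 4 control and 4 labelled-cKO libraries, ordered by control mean (points are libraries, lines are group means). Atoh7 drops from the top of the order, at 183 FPKM, to the level of Neurod4 and Neurod1, at 107 FPKM, while the lower part of the order is the same in both groups. The place of Atoh7 depends on the gene length the authors used for it.

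The ratio of Atoh7 to Neurog2, Neurod4 and Hes6 did not overlap between the groups. Atoh7 FPKM per Neurod4 FPKM was 0.851, 0.917, 1.21 and 1.55 in labelled-cKO replicates 1 to 4 and 1.80, 2.36, 2.45 and 2.53 in the controls. Per Neurog2 FPKM it was 1.62 to 2.18 against 2.34 to 2.93, and per Hes6 FPKM 0.526 to 0.810 against 0.975 to 1.22. Atoh7 by itself did not overlap between the groups either, so this separation partly repeats its own difference. These ratios were formed after the values were seen and are given as a description. Their size depends on the gene length the authors used for Atoh7, which is the same in both groups.

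Within the labelled-cKO group Atoh7 and Neurod4 ordered the libraries in opposite ways, and none of the other 7 genes followed that order. Atoh7 increased in the order of replicates 1, 2, 3 and 4, and Neurod4 decreased in the same order, so the library with the least Atoh7 had the most Neurod4. In the controls, replicate 1 had the least Atoh7 and the most Neurod4, but replicates 2 to 4 showed no such order: replicate 2 had the most Atoh7 of all controls and more Neurod4 than replicates 3 and 4. Neurog2 was lowest in labelled-cKO replicate 2 and highest in replicate 4. The 2 libraries with Xist were replicates 2 and 3, and the lens counts, highest in replicate 2, did not follow this order. This order was picked out after the values were seen, and the share of all genes that follow it was not counted. With 4 libraries in a group no test was made.

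**Figure D4:**
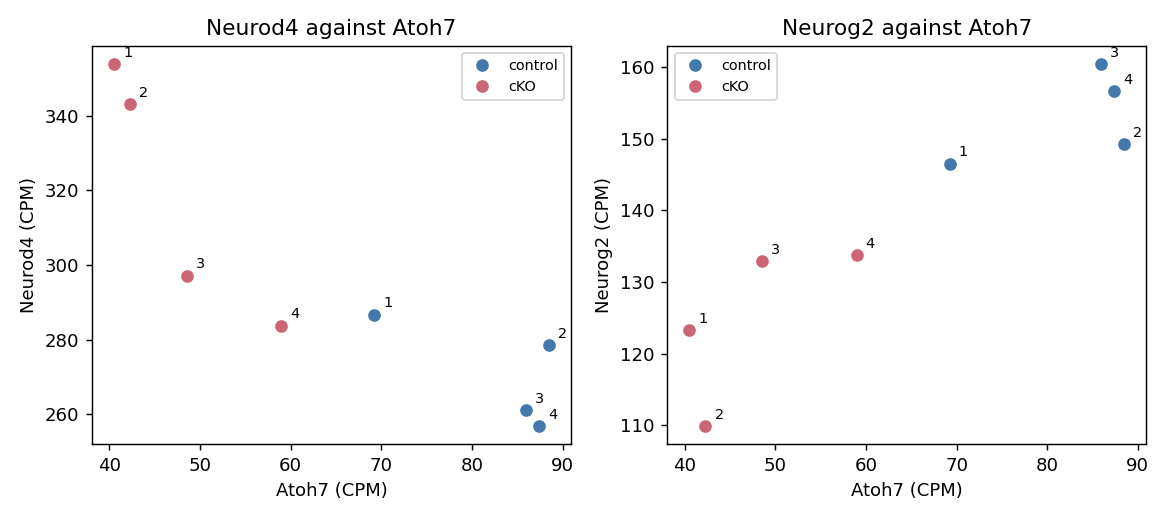
Neurod4 (left) and Neurog2 (right) in CPM on the y axes against Atoh7 in CPM on the x axes, for each library with its replicate number. Labelled-cKO replicates 1 and 2 have the least Atoh7, at 40.5 and 42.3 CPM, and the most Neurod4, at 354 and 343 CPM.

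Among partners and antagonists of these factors, 1 of 3 E proteins and 3 of 4 Id genes were lower and none was higher. Among E proteins, the dimer partners, Tcf3 was lower (111 ± 7.94 against 126 ± 1.76 CPM, SD, n = 4, log2 -0.18, edgeR adjusted p = 0.0308), and Tcf12 and Tcf4 were not called, at -0.06 and -0.01. The call of Tcf3 was lost in 9 of 17 alternatives. Of 4 Id genes, whose proteins block such dimers, 3 were lower: Id1 fell by log2 0.41, Id2 fell by 0.33 and Id3 fell by 0.27, whereas Id4 was at 0.02 (edgeR adjusted p = 0.941). The count of lower Id genes was 1 under 4 of the 17 alternatives, namely library size alone, a sex term, male libraries alone, and leaving out the 2 libraries with lens counts.

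Among 5 Hes and Hey repressors of the Notch pathway, 2 were higher, 2 lower and 1 not called. Hes5 was at 81.5 ± 8.46 against 108 ± 15.1 CPM (SD, n = 4, log2 -0.41, edgeR adjusted p = 0.00654) and Heyl fell by log2 0.38. Hey2 and Hey1 rose by 1.19 and 0.50, and Hes1, the repressor that Hes6 opposes, was at -0.09 (edgeR adjusted p = 0.182). The lower count was 1 with a sex term and with male libraries alone.

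Of 12 other neural bHLH genes, Neurog3, Atoh1 and Olig3 were absent from the table and 3 were too low to test. Of the 6 tested, 3 were higher, 0 lower and 3 not called. The count of lower genes was 1 with DESeq2 and with a replicate block. The higher genes were Tal1, a factor of blood and of some inhibitory neurons (6.70 ± 0.704 against 0.209 ± 0.0951 CPM, SD, n = 4, log2 4.92, edgeR adjusted p = 6.25e-09), Bhlhe22, an amacrine and bipolar factor (log2 0.71), and Olig1. Ptf1a, required for amacrine and horizontal cells, was not called, at log2 0.16 (edgeR adjusted p = 0.222). Of 21 bHLH genes of non-neural lineages, 13 were absent and 4 were too low to test. Of the other 4, the mesenchyme factor Twist1 was higher (log2 3.83), Atoh8 was lower (-0.55), and Scx and Bhlha15 were not called. Genes nearly absent from the controls, such as Tal1, Olig1 and Twist1, pass the low-count filter through their labelled-cKO counts.

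**Figure D5:**
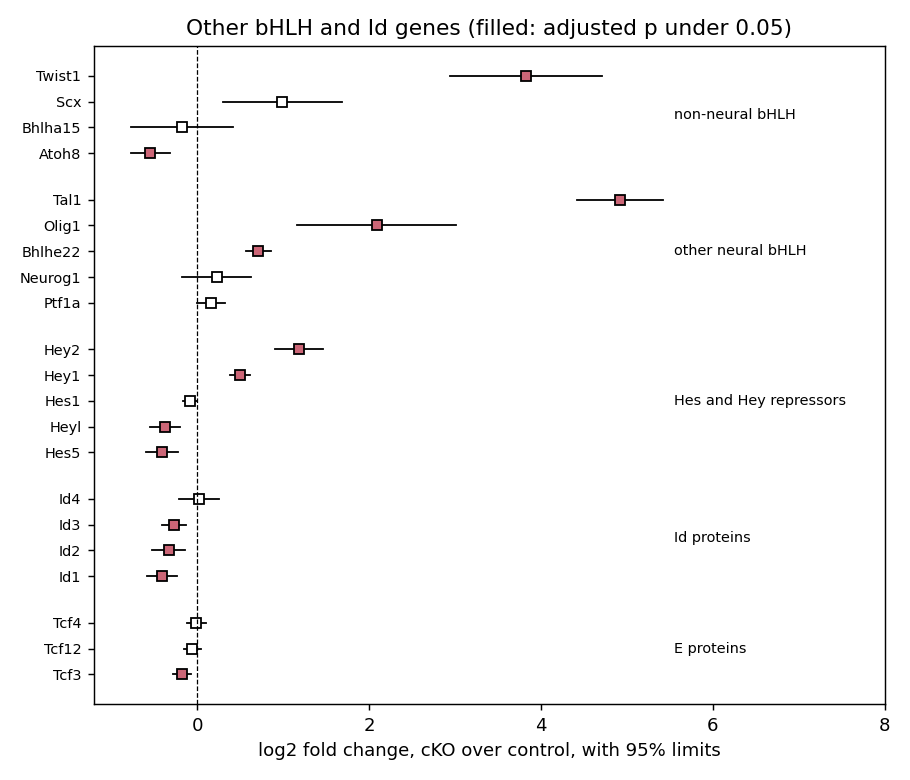
The log2 fold change of 21 other bHLH and Id genes that were tested, labelled cKO over control (x axis), with 95% limits (lines) and filled squares for adjusted p under 0.05 (edgeR). Not every tested gene of these lists is drawn. The 3 lower Id genes, Hes5, Heyl and Atoh8 lie to the left of 0, and Tal1, at 4.92, and Twist1, at 3.83, lie far to the right.

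Genes that proneural factors are known to switch on, or that mark neurogenic cells, moved in both directions: of 16, 5 rose, 3 fell and 8 passed no threshold, with a median log2 difference of -0.06. The Notch ligand genes Dll1 (log2 -0.16, edgeR adjusted p = 0.118), Dll3 (-0.02, 0.895) and Dll4 (-0.19, 0.327) and the zinc finger gene Insm1 (-0.04, 0.766) were not called. The growth arrest gene Gadd45g was higher at 10.3 ± 0.638 against 5.19 ± 0.491 CPM (SD, n = 4, log2 1.00), and its relative Gadd45a was lower at 75.4 ± 3.59 against 106 ± 8.27 CPM (-0.49). The signalling regulator Rgs16 (0.32) and the corepressor gene Cbfa2t3 (0.89) were higher. The count of higher genes was 3 without labelled-cKO replicate 3 or control replicate 1 or 2, and the count of lower genes was 1 with a sex term.

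The ganglion cell list, downstream of Atoh7 in development, had 15 members, of which 6 fell, 2 rose and 7 passed no threshold, with a median of -0.10. The 2 that rose changed by more than any that fell: Thy1, a surface protein gene of ganglion cells and other neurons, rose by log2 1.45 (edgeR adjusted p = 1.70e-06), and Pou4f3, a paralog of Pou4f2, rose by 1.24 (2.08e-06). Pou4f2, which acts directly after Atoh7, was at 33.9, 29.3, 35.1 and 42.4 CPM in the labelled-cKO libraries, whereas the controls had 78.8, 63.0, 64.9 and 67.2 CPM (log2 -0.96, edgeR adjusted p = 1.07e-05). Isl1, which acts beside it, was at log2 -0.17 (edgeR adjusted p = 0.0428), and Ebf3 and Rbpms were at -0.10 and 0.00. With a sex term 3 ganglion cell genes were lower. Of 7 photoreceptor precursor genes tested, 5 were higher (Crx, Nrl, Nr2e3, Rxrg and Otx2), 0 lower and 2 not called, with a median of 0.30. Over all genes tested, 8.35% were higher and 3.46% lower. Those not called were Thrb (log2 -0.14, edgeR adjusted p = 0.101) and Prdm1 (0.125, 0.128). The count of 5 higher genes was the same in all 17 alternatives, and the count of lower genes was 1 in 1 of them. Otx2, the factor upstream of Crx, was at 277 ± 13.4 against 231 ± 7.44 CPM (log2 0.26, edgeR adjusted p = 0.00166). Of 11 amacrine and horizontal factors, 5 were higher, among them Meis2 and Tfap2b, and 1 lower (Foxn4, a call lost in 3 alternatives), with a median of 0.33. Of 10 pan-neuronal genes, 1 was higher (Snap25), 0 lower and 9 not called, with Tubb3 at -0.02 (edgeR adjusted p = 0.909). The count of higher pan-neuronal genes was 0 without labelled-cKO replicate 1 or 2 or control replicate 2 or 3, with a sex term and in male libraries alone, and 2 with library size alone and DESeq2. The count of lower ones was 1 with DESeq2 and 2 without control replicate 2.

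Of the markers of other cells, those of lens, pigment epithelium and blood had no called gene, and those of microglia and mesenchyme had genes that rose. Lens genes summed to 1.26 to 12.5 CPM and pigment epithelium genes to 8.43 to 31.9 CPM over all 8 libraries, with 0 of 1 and 0 of 4 tested genes called. Erythroid genes ran from 91.2 to 871 CPM in the labelled-cKO and 160 to 1288 CPM in the control libraries, with none of 6 called. Microglia genes summed to 34.9 to 42.2 against 26.6 to 32.7 CPM, with 3 of 6 tested genes higher (1 with a sex term, in male libraries alone or without the lens libraries), and the 8 mesenchyme genes to 26.4 to 76.8 against 23.1 to 49.6 CPM, with 4 of 8 higher, among them Pdgfra, Twist1 and Foxc1. Of the 3 endothelial genes tested 1 was higher and 1 lower, the latter Kdr, which retinal progenitors also express. The part of these cells in the levels of the 9 genes was not tested.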

How the data were processed

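The authors deposited a single table with whole-number counts per gene and library, FPKM (scaled by gene length and depth by the authors), their log2 ratio, and an adjusted-p score on a scale its header does not name. The submitters' processing notes name Novoalign 2.08.01, DESeq2 and the build mm10. The sources used here do not name the read counter, its annotation or its strand setting. The score was not used, and the FPKM and log2 ratio only as levels and for comparison. Every value column was matched to a sample or to the authors' comparison.

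Deposited counts were tested with edgeR 4.0.16 in R 4.3.3: TMM normalization, filterByExpr (minimum count 10), glmQLFit, glmQLFTest, Benjamini-Hochberg adjustment, threshold 0.05, 4 against 4 libraries, no covariate. It left 15014 genes with 99.9% of the counts. The procedure was tested on simulated data. Of all calls 70.7% were higher, or 82.5% with library size alone. Where a symbol is repeated (66 are), the row with most counts was used. The 95% limits use edgeR's total degrees of freedom. Alternatives were RLE factors, library size alone, no filter, DESeq2 1.42.0, a replicate block, each library left out, sex (from Xist) as a covariate, male libraries alone, the 2 libraries with lens counts left out, and mitochondrial genes left out. Counts over the gene lists under these alternatives were added after the data were seen. Libraries of a group differed by 4.68 to 24.0 in chi-square per degree of freedom, more than reads drawn from 1 library would. This does not show whether they come from separate embryos.

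The 9 genes, the lists and the tests were chosen with earlier results of these data known. Named genes were the 9, Ezh2, up to 4 genes with the smallest p in each list, and for each of the 9 the 2 genes with at least 5 CPM whose log2 CPM correlated best with it (0.1 CPM added). Other genes of the lists were named after their values were seen, and some named by the rule are given as counts only. Promoter letters are from RefSeq on GRCm38.p6, the assembly that mm10 names, and gene models are from GENCODE M21. No protein sequences were used here. Some genes of the lists are not reported here by name, although they are in the counts.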

Additional observations from a re-analysis of the deposited data

Results flagged for a closer look

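In 20 groups of 4 libraries (the 9 genes and Ezh2, labelled cKO and control), 3 held a library whose gap to its neighbour took up more of the group's range than the 95% limit for 4 samples allows, and chance alone would pass that limit in about 1 group of 20. Control replicate 1 stood apart in 2 of them: Atoh7 was at 69.2 CPM there, against 86.0 to 88.5 CPM in the other controls, and Neurod1 was at 270 CPM, against 233 to 235 CPM. That library also had the fewest counts in all (13994825), 13.7% of its counts in mitochondrial rRNA, and 167 lens counts. Without it, the log2 difference of Atoh7 was -0.88 and that of Neurod1 was 0.15. Labelled-cKO replicate 2 stood apart for Olig2, at 22.8 CPM against 29.5 to 30.6 CPM; that library has Xist counts, 14% mitochondrial rRNA and 122 lens counts. The part of these features in the values was not tested.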

How the results depend on the processing

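Over 17 alternatives the 9 log2 differences were recomputed 153 times: 132 kept direction and side of the threshold, 14 kept the direction and lost the call, and 7 changed sign, all of these in Olig2 and Nhlh1, which were not called. With a sex term Neurog2 was at -0.25, Neurod4 at 0.24 and Olig2 at 0.026; with male libraries alone Neurod4 was at 0.24 and Olig2 at 0.026; without the 2 libraries with lens counts they were at 0.23 and 0.040. DESeq2 gave Neurod2 at 1.19 without a call and Ezh2 at 0.20 with one. Leaving out each library in turn gave -0.92 to -0.73 for Atoh7, -0.33 to -0.24 for Neurog2, 0.92 to 1.42 for Neurod2, 0.19 to 0.29 for Neurod4, -0.091 to 0.034 for Olig2, -0.14 to 0.10 for Nhlh1 and 0.16 to 0.26 for Ezh2, which was called without labelled-cKO replicate 4. Of the 9 genes, 0 to 2 were higher and 2 lower when a library was left out; 0 were higher without labelled-cKO replicate 1 or control replicate 2 or 4. With DESeq2, a sex term, male libraries alone or no lens libraries 1 was higher, and with a sex term 1 was lower. Over all genes, 1008 to 1233 were higher and 329 to 667 lower when a library was left out, the fewest lower without control replicate 3; the counts were 795 and 246 with a sex term, 800 and 255 in male libraries, 323 lower without the lens libraries and 273 lower with library size alone. Fits without libraries rest on fewer samples, and with a sex term the group difference rests on the male libraries. For the sex term and library size alone the cause was not tested. Deviations of same-numbered libraries correlated at 0.235, -0.0901, 0.00713 and 0.171 over 15014 genes, and those of unlike number at -0.216 to 0.164. Of 8 libraries, 4 correlated best with their own number. These values do not settle whether same-numbered libraries share more than a number. With the replicate block 1179 genes were higher and 497 lower, no call among the 9 changed, and Ezh2 was called at 0.21. Depth limits Neurod2 most, with 4 to 23 counts per library.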

Other observations

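The genes most like 7 of the 9 over the 8 libraries were taken from 11683 genes with at least 5 CPM, by the correlation of log2 CPM; the groups differ, so each value partly repeats the group difference, and the best of so many genes is high by choice. For Atoh7 they were Alpk1 (r = 0.991), a kinase gene, and the homeobox gene Dlx1 (r = 0.986), which was at 17.5 ± 3.51 against 30.1 ± 1.49 CPM (SD, n = 4, log2 -0.78, edgeR adjusted p = 0.000163). For Neurog2 they were Pfkl and Pip5k1b, at log2 -0.12 and -0.47, and for Neurod4 A630007B06Rik and the myosin gene Myo6, the latter at 0.27 (edgeR adjusted p = 0.0396). The nearest genes of Hes6 (Cox7b and Fh1), Nhlh1 (Kcnk10 and Asphd2), Nhlh2 (Zfp644 and Pafah1b1) and Neurod1 (Amd1 and Pter) were not called, with r from 0.950 to 0.991.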
